A study of Mus musculus with 6 samples.

Results

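The genes described here encode the proteins of the mitochondrial ribosome, named Mrpl for the large subunit and Mrps for the small subunit. They were taken as the protein-coding genes whose mouse symbol is Mrpl or Mrps followed by a digit, leaving out pseudogenes, which gave 78 of the 28822 gene identifiers in the count table. The RNA was from bone marrow-derived macrophages (BMDMs), grown from mouse marrow precursors, per the title of the series, whose design text also allows BV2 microglia. They were kept in the upper chamber of a Transwell, a porous insert. HT22 cells, a neuronal line from mouse hippocampus, had been deprived of oxygen and glucose for 2 h and lay below. In both groups the cells shared this co-culture, and they received either BW723C86, an agonist of the serotonin receptor 5-HT2B (3 samples), or its vehicle DMSO (3 samples). Dose, duration of treatment, mouse strain and how many cultures or mice were used are not given by the labels.

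The mitochondrial ribosome translates the few mRNAs encoded by mitochondrial DNA, all of which specify membrane subunits of the respiratory chain and ATP synthase. Its rRNAs come from mitochondrial DNA, whereas its proteins are encoded in the nucleus, made in the cytosol and imported, so that the particle is assembled from the products of both genomes. Part of its proteins descend from bacterial ribosomal proteins and the rest are particular to mitochondria. In macrophages, the supply of respiratory chain subunits is of interest because the cells shift between respiration and glycolysis when they are activated.

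Levels are given as CPM (counts in relation to a library total of fixed size, after edgeR's trimmed-mean or TMM adjustment). Changes are log2 fold changes of BW723C86 over DMSO with their standard error (SE), and a gene is said to rise or fall where edgeR's quasi-likelihood test gave a Benjamini-Hochberg adjusted p under 0.05 over 15567 tested genes. All 78 genes passed the filter on low counts and were tested. Library totals ran from 58841307 to 75931615 counts, and a single mitoribosomal gene had 423 to 5358 counts in a library. Among the 6 libraries, BW723C86 replicate 2 stood apart, and results that rest on it are given with and without it.

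Promoter sequences are shown first, because the genes are often discussed as a set under common regulators. Of the 78 genes, 69 had an entry in the RefSeq promoter table (GRCm38.p6), which covers 250 bases before to 50 bases after each start. Each sequence below runs from 120 bases before the start to 30 bases after it, 5′ to 3′ on the gene's strand, with matches in capitals. Mrpl47 and Mrpl48 are shown for the largest fall and the largest rise, and the other four as examples of each motif. Mrpl47 (chr3:32736726-32736875, minus strand) held none of the motifs searched. Mrpl48 (chr7:100608272-100608421, minus strand, the outermost of its 4 starts in the table) held the SP1 letters 48 bases before the start. Outside the printed stretch, the windows of its 4 starts also held the ETS letters CCGGAAG and the TATA letters TATAAA. Mrpl27 (chr11:94653671-94653820, plus strand) held the ETS letters 55 bases before the start. Mrps23 (chr11:88204268-88204417, plus strand) held the ETS letters on the opposite strand from base 16 of the transcript. Mrps11 (chr7:78783011-78783160, plus strand) held the YY1 letters on the opposite strand, beginning 107 bases before the start, and the SP1 letters. Mrpl9 (chr3:94443216-94443365, plus strand) held the NRF1 letters 27 bases before the start.
Mrpl47: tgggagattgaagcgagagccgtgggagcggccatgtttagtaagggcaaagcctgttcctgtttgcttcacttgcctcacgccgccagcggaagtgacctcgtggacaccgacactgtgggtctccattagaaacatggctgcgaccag
Mrpl48: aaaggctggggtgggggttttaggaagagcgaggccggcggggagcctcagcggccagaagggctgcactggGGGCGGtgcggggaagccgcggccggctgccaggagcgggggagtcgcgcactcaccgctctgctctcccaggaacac
Mrpl27: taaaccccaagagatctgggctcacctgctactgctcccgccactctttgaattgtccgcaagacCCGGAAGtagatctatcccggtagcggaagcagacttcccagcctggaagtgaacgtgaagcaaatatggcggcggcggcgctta
Mrps23: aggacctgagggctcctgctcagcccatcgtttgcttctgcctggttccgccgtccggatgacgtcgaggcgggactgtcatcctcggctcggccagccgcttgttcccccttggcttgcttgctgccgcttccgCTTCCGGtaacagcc
Mrps11: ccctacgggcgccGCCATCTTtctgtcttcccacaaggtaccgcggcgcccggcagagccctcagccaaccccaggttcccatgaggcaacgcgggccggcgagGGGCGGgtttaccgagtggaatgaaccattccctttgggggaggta
Mrpl9: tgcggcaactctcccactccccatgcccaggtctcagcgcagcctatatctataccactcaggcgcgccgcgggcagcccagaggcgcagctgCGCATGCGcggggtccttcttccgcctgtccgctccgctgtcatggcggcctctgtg

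Short consensus letters of 7 motifs were searched on both strands of the whole 300-base windows, a gene counting once where any of its starts held a match. The motifs can overlap within a window. The 69 mitoribosomal genes had 75 windows and the 9928 tested genes 12663, so a tested gene had on average more chances of a match. CCGGAAG, bound by ETS factors such as GABP, was present at 26 of 69 mitoribosomal genes (37.7%), against 20.4% of 9928 tested genes with an entry and 8.86% of all 32851 windows. AAGATGGC, bound by YY1, was present at 12 (17.4%), against 5.33% of tested genes and 2.75% of windows. CGCATGCG, the core of the site of nuclear respiratory factor 1, was present at 7 (10.1%), against 4.32% and 1.87%. GGGCGG, bound by SP1, was present at 34 (49.3%), against 67.7% and 35.7%. The E-box CACGTG was present at 5 (7.25%, against 11.7% and 7.15%), CCAAT at 27 (39.1%, against 42.9% and 37.4%) and the TATA letters TATAAA at 5 (7.25%, against 8.69% and 13.6%). With BW723C86, 20.5% of all mitoribosomal genes and 42.0% of all tested genes changed, as given below. Of the 34 genes with the SP1 letters, 5 rose and 4 fell, and none of the 7 with the NRF1 letters passed. Of the 26 genes with the ETS letters, 3 rose and 1 fell, and of the 12 with the YY1 letters, 2 rose and 1 fell. The median log2 fold change was -0.0037 for the former and -0.1 for the latter.

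With BW723C86, 7 of the 78 mitoribosomal genes rose (8.97%) and 9 fell (11.5%), and 62 did not pass. The largest changes were a fall of Mrpl47 by 0.64 and a rise of Mrpl48 by 0.42 on the log2 scale. The 16 changed genes make 20.5% of the set, beside 42.0% of all 15567 tested genes (21.3% higher and 20.7% lower) and 50.0% of the 6223 tested genes whose mean CPM in DMSO lay in the same range (8.72 to 66.1). The groups did not overlap for 23 mitoribosomal genes (29.5%; 9 higher and 14 lower with BW723C86), beside 52.3% of all tested genes and 58.4% of those in the range. An unadjusted edgeR p under 0.05 was reached by 27 of the 78. At least 42.0% of all tested genes reached it, as an adjusted p under 0.05 requires it. With scaling to library totals alone the split was 3 higher and 19 lower, with a median of all tested genes of -0.069. Leaving out single libraries moved the counts by over 1.5 times: 3 rose and 14 fell without BW723C86 replicate 1, 11 rose and 9 fell without BW723C86 replicate 2, 5 rose and 5 fell without DMSO replicate 1, 3 rose and 6 fell without DMSO replicate 2, and 4 rose and 6 fell without DMSO replicate 3. The labels do not say that replicates were separate cultures, so p-values measure the spread among these 6 libraries, which may be technical in part.

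**Figure D1:**
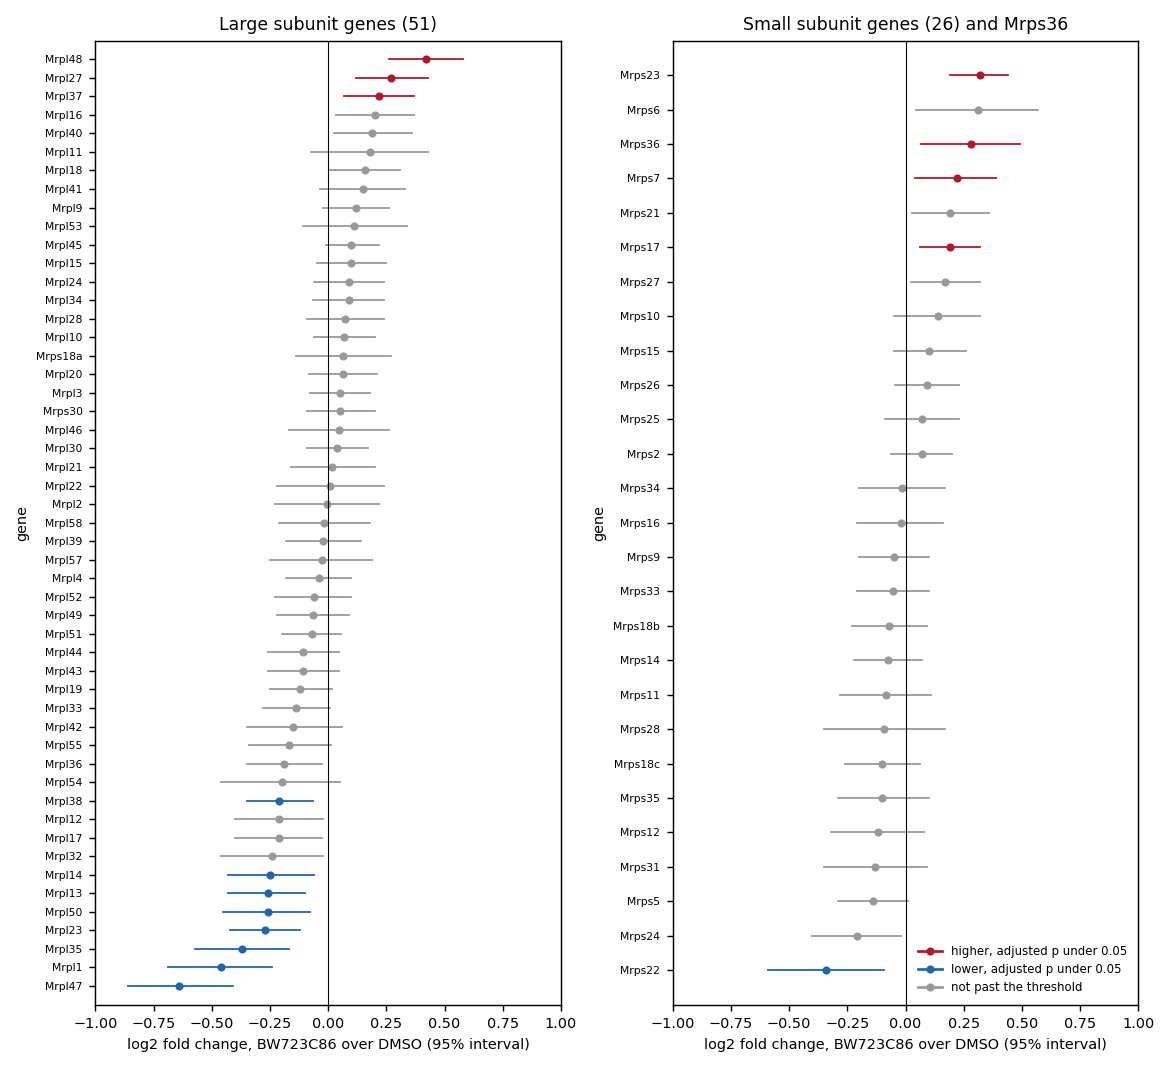
Log2 fold change of BW723C86 over DMSO for each of the 78 genes (points) with its 95% interval (lines), large subunit on the left and small subunit with Mrps36 on the right, ordered by value. The 7 genes that rose are red, the 9 that fell are blue and the 62 that did not pass are grey, with values from -0.64 for Mrpl47 to 0.42 for Mrpl48.

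Most changes were small. The median log2 fold change was -0.019, beside 0.0042 for all tested genes, and the median absolute log2 fold change was 0.12, beside 0.27. The 95% interval lay within 1.5-fold in either direction for 75 of the 78 genes (96.2%), including all 62 that did not pass, beside 51.5% of all tested genes and 77.3% of those in the same CPM range. It lay within 1.2-fold for 36 (46.2%), beside 16.9%. When the test was set against a 1.2-fold change, Mrpl47 and Mrpl48 passed (2.56%), beside 20.6%. Mrpl47 alone passed with a change of at least 1.5-fold, beside 15.5%.

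**Figure D2:**
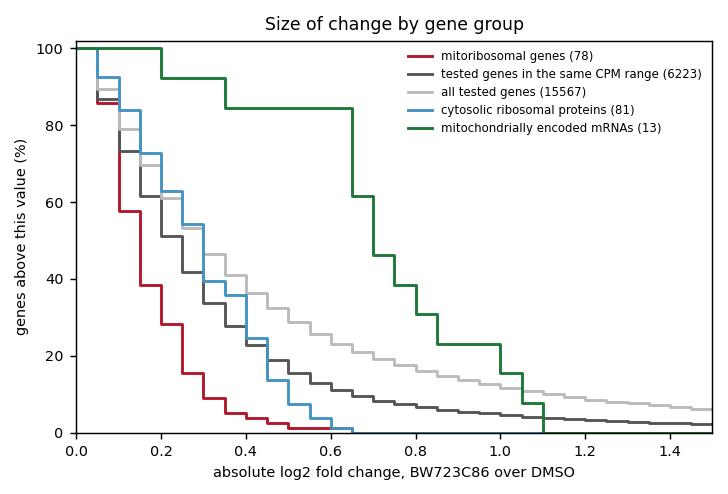
Share of genes (%) whose absolute log2 fold change lies above the value on the x axis, for 5 groups of genes. An absolute change above 0.3 was seen for 8.97% of the mitoribosomal genes, 33.6% of tested genes in the same CPM range, 46.5% of all tested genes, 39.5% of the cytosolic ribosomal protein genes and 92.3% of the mitochondrially encoded mRNAs.

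The large subunit holds 51 of the genes, with Mrps30 and Mrps18a, which carry a small subunit name but sit in the large subunit. Among its 30 genes with a bacterial counterpart, 1 rose (Mrpl27) and 6 fell (Mrpl47, Mrpl1, Mrpl35, Mrpl23, Mrpl13, Mrpl14), together 23.3%. Among the 21 that are particular to mitochondria, 2 rose (Mrpl48, Mrpl37) and 2 fell (Mrpl50, Mrpl38), together 19.0%. Both shares lie below the 42.0% of all tested genes. The exit of the tunnel, through which the new chain leaves next to the inner membrane, is lined by 6 listed proteins, of which 2 fell (33.3%, beside 42.0% of all tested genes changed in either direction and 20.7% lower).

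Mrpl47 (ENSMUSG00000037531), which lies at the exit of the tunnel, stood at 12.5, 13.9 and 11.9 CPM in DMSO and at 7.38, 8.65 and 8.55 CPM with BW723C86. Each treated sample lay below each control, and the gene fell by 0.64 on the log2 scale (SE 0.1, adjusted p = 0.00027). Its exons share 616 bases with Ndufb5, a complex I subunit gene that rose by 0.18 (adjusted p = 0.018) and has 55.3 CPM over all samples, and 452 bases with Actl6a, both on the opposite strand. The libraries mark strand, but whether the counting used it is not given, so reads of the shared exons may not be told apart. Mrpl23 (ENSMUSG00000037772), at the same site, stood at 32.0, 32.5 and 31.4 CPM in DMSO and at 27.4, 24.2 and 28.1 CPM with BW723C86, again with no overlap (log2 fold change -0.27, SE 0.069, adjusted p = 0.0072). The other tunnel genes did not pass. They were Mrpl17 at -0.21, Mrpl22 at 0.0091, Mrpl24 at 0.091 and Mrpl45, the receptor that holds the ribosome at the membrane, at 0.1.

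The central protuberance, the part of the large subunit that faces the head of the small one, has 7 listed genes, of which 2 rose and 1 fell (42.9%, about the 42.0% of all tested genes). Mrpl48 (ENSMUSG00000030706) stood at 19.4, 18.5 and 19.2 CPM in DMSO and at 27.2, 23.9 and 25.3 CPM with BW723C86. The groups were well apart, and it rose by 0.42 (SE 0.072, adjusted p = 0.00044). It shares 708 exon bases with Rab6a on the opposite strand, a Golgi transport GTPase gene at 87.1 CPM over all samples that fell by 0.3. Mrpl27 (ENSMUSG00000024414), whose bacterial counterpart reaches the peptidyl transferase centre, stood at 18.3, 19.4 and 17.7 CPM in DMSO and 21.6, 22.6 and 22.6 CPM with BW723C86 (log2 fold change 0.27, SE 0.071, adjusted p = 0.0079). Mrpl38 (ENSMUSG00000020775) went the other way, with 32.0, 32.8 and 32.7 CPM in DMSO and 30.2, 26.5 and 27.8 CPM with BW723C86, or -0.21 on the log2 scale (adjusted p = 0.021). Its call was lost without BW723C86 replicate 3 and without each DMSO replicate (adjusted p of 0.051 to 0.068). Mrpl18, Mrpl40, Mrpl46 and Mrpl55 did not pass, with values of 0.16, 0.19, 0.045 and -0.17.

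The other genes of the large subunit that passed lie outside these sites. Mrpl1 (ENSMUSG00000029486), of the mobile stalk beside the exit site for tRNA, stood at 12.3, 13.2 and 12.4 CPM in DMSO and 10.5, 8.55 and 8.53 CPM with BW723C86, or -0.46 on the log2 scale (SE 0.1, adjusted p = 0.003). Mrpl35 (ENSMUSG00000052962) fell from 20.4, 20.7 and 21.8 CPM to 17.2, 17.5 and 14.0 CPM, by 0.37 (SE 0.091, adjusted p = 0.0053). Both genes were lower in each treated sample than in any control, and both passed with each library left out in turn. Mrpl50 (-0.26, adjusted p = 0.024), Mrpl13 (-0.26, adjusted p = 0.014) and Mrpl14 (-0.25, adjusted p = 0.033) also did not overlap between groups. Mrpl50 was lost without DMSO replicate 1 or 3 (adjusted p = 0.054 and 0.1) and, at -0.14, with GC and length trends removed (adjusted p = 0.21), and Mrpl13 without BW723C86 replicate 3 or DMSO replicate 3 (0.063 and 0.053). Mrpl14 was lost with any library left out except BW723C86 replicate 1 (adjusted p of 0.052 to 0.14). Mrpl37 (27.5 ± 1.28 CPM in DMSO, SD, n = 3) rose by 0.22 (adjusted p = 0.022), with no overlap, and was lost without BW723C86 replicate 1 or 3 or DMSO replicate 2 or 3 (adjusted p of 0.062 to 0.1) and, at 0.15, with library totals alone (0.1).

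None of the 5 genes of the stalk that recruits translation factors passed. Mrpl12, the multicopy stalk protein and the gene of highest CPM in DMSO, stood at 68.9, 66.8 and 62.7 CPM there and at 64.3, 48.5 and 58.5 CPM with BW723C86, with overlapping groups (log2 fold change -0.21, SE 0.086, adjusted p = 0.067). The lowest of these values was from BW723C86 replicate 2. Mrpl10, Mrpl11, Mrpl53 and Mrpl54 had values of 0.07, 0.18, 0.11 and -0.2. Around the peptidyl transferase centre, where peptide bonds form, Mrpl27 passed and Mrpl2 (-0.0057), Mrpl3 (0.053), Mrpl4 (-0.041) and Mrpl16 (0.2, adjusted p = 0.051) did not.

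In the small subunit, which binds the mRNA, 2 of 16 genes with a bacterial counterpart rose (Mrps7, Mrps17) and none fell (12.5%). Of 10 that are particular to mitochondria, 1 rose (Mrps23) and 1 fell (Mrps22), or 20.0%. Both shares lie below the 42.0% of all tested genes. Mrps23 (ENSMUSG00000023723) stood at 41.1, 42.0 and 41.1 CPM in DMSO and at 53.2, 48.8 and 52.6 CPM with BW723C86. The treated samples were all above the controls, and the gene rose by 0.32 (SE 0.056, adjusted p = 0.00052) and passed with each library left out. Mrps17 (ENSMUSG00000034211), a protein of the subunit body, stood at 36.2, 37.5 and 39.7 CPM and at 45.1, 42.8 and 41.7 CPM (log2 fold change 0.19, adjusted p = 0.02), and was lost without BW723C86 replicate 1 or DMSO replicate 1 or 2 (adjusted p of 0.071 to 0.11) and, at 0.12, with library totals alone (0.14). Mrps22 (ENSMUSG00000032459) stood at 12.2, 13.1 and 9.82 CPM and at 8.91, 9.04 and 9.76 CPM (log2 fold change -0.34, adjusted p = 0.03). The closest samples of the groups differed by little, and the call was lost without BW723C86 replicate 1 or DMSO replicate 1 or 2 (adjusted p of 0.077 to 0.14), with limma-voom (0.053) and with GC and length trends removed (0.095).

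Mrps7 (ENSMUSG00000046756), of the head, stood at 28.3, 32.6 and 33.3 CPM in DMSO and at 40, 33.3 and 36.2 CPM with BW723C86. Its groups touched, it passed narrowly (log2 fold change 0.22, adjusted p = 0.048), and it was lost in 14 of 19 alternative settings, among them every left-out library except BW723C86 replicate 2 (adjusted p of 0.056 to 0.23 where lost). The other 4 head genes did not pass. Neither did any of the 3 genes of the decoding site, Mrps5, Mrps12 and Mrps24, which were at -0.14, -0.12 and -0.21. Of the 5 platform genes none passed, the farthest being Mrps6 at 0.31 (SE 0.12, adjusted p = 0.058), whose treated samples of 15.6, 11.4 and 16.1 CPM reached into the control range of 11.4 to 12 CPM. The 3 paralogues of Mrps18, which occupy different places in the 2 subunits, stood at 0.065 (Mrps18a), -0.07 (Mrps18b) and -0.1 (Mrps18c), and none passed.

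Mrps36 (ENSMUSG00000061474) carries a mitoribosomal name but its product is now assigned to the oxoglutarate dehydrogenase complex of the citric acid cycle. It stood at 18.3, 16.4 and 15.2 CPM in DMSO and at 22.6, 18.2 and 19.7 CPM with BW723C86, with a small overlap (log2 fold change 0.28, adjusted p = 0.037). It was lost without BW723C86 replicate 1 or 3 and without DMSO replicate 2 or 3 (adjusted p of 0.076 to 0.17), and with library totals alone (0.097), DESeq2 (0.051) and limma-voom (0.053). Its pseudogenes Mrps36-ps1 and Mrps36-ps2 had few counts (0.142 and 0.156 CPM in DMSO), as did Mrpl48-ps (0.77) and Mrpl23-ps1 (0.765). How the counting treated reads that fit both is not given.

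**Figure D3:**
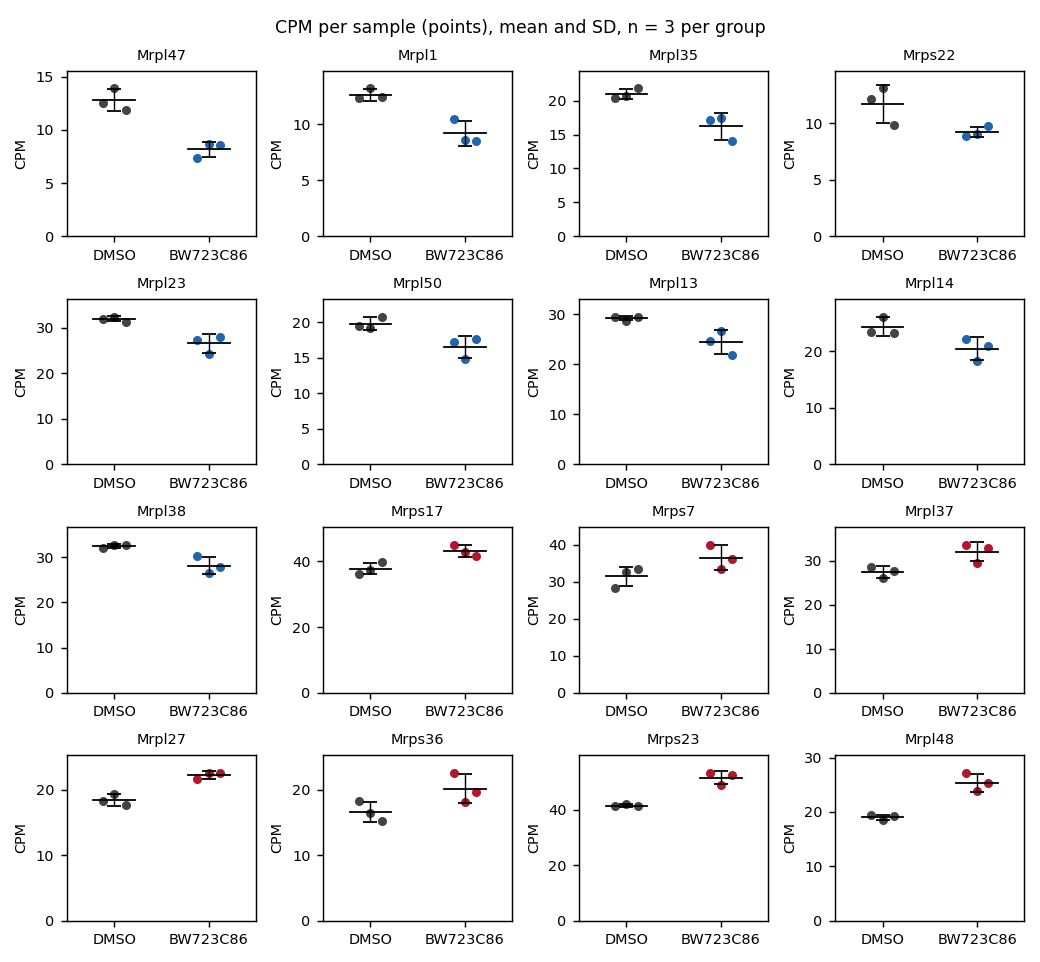
CPM in each sample (points) with the group mean and SD (n = 3 per group) for the 16 genes that passed, each on an axis from 0, ordered from the largest fall to the largest rise. The groups do not overlap for 14 of the 16 genes, and those of Mrps7 and Mrps36 do.

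Summed over the 78 genes, the mitoribosomal mRNAs made 2197, 2177 and 2146 CPM in DMSO and 2292, 2045 and 2177 CPM with BW723C86. The means were 2173 ± 25.6 and 2171 ± 123 CPM (SD, n = 3), and the groups overlapped (two-sided exact permutation test, p = 0.9). Leaving out BW723C86 replicate 2 gave a difference of 61.1 CPM (exact permutation p = 0.6), and scaling to library totals alone gave -114 CPM (exact permutation p = 0.1). The share of the sum that came from large subunit genes was 68.9, 68.5 and 68.4% in DMSO and 67.6, 67.5 and 67.6% with BW723C86. Each treated share lay below each control share, by 1.05 percentage points on average (SE 0.159; exact permutation p = 0.1, the smallest that 3 against 3 samples allow). The difference was -1.02 points without BW723C86 replicate 2 and ran from -0.899 to -1.15 points over the 6 left-out libraries.

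**Figure D4:**
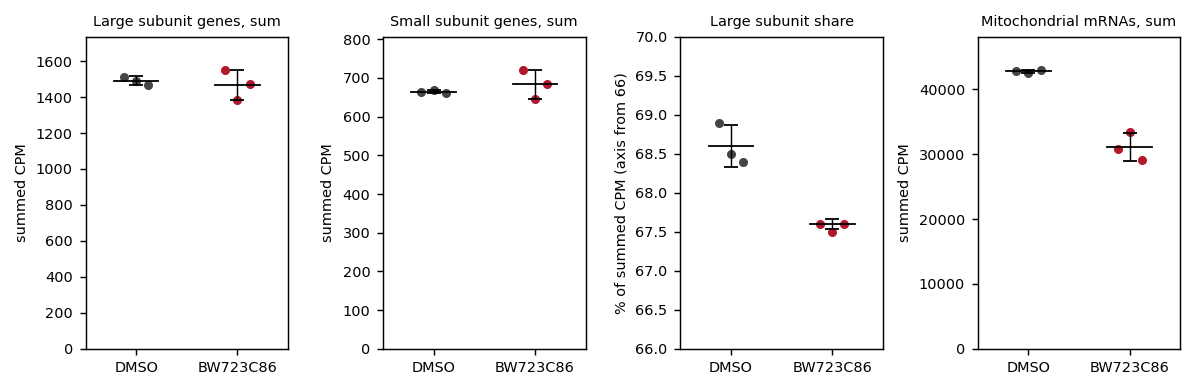
Summed CPM of large subunit genes, of small subunit genes and of mitochondrially encoded mRNAs, and the large subunit share of the mitoribosomal sum (%, axis from 66), with points for samples and bars for mean and SD (n = 3 per group). The sums of the 2 subunits overlap between groups, whereas the share (68.4 to 68.9% against 67.5 to 67.6%) and the sum of mitochondrial mRNAs do not.

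The mRNAs that this ribosome translates are encoded by mitochondrial DNA. All 13 mitochondrially encoded mRNAs fell, from -1.06 for mt-Nd4 to -0.17 for mt-Co1, with a median of -0.69, and mt-Co1 was lost with any library left out except BW723C86 replicate 2 (adjusted p of 0.054 to 0.11). Their sum was 42907, 42579 and 42964 CPM in DMSO and 30812, 33445 and 29072 CPM with BW723C86 (exact permutation p = 0.1). For each CPM of mitoribosomal mRNA there were 19.5, 19.6 and 20.0 CPM of mitochondrial mRNA in the DMSO samples (mean 19.7, SD 0.275) and 13.4, 16.4 and 13.4 CPM in the treated ones (mean 14.4, SD 1.71). The groups did not overlap (exact permutation p = 0.1, the smallest possible). With trends of count on GC content and length removed, the median of the 13 was -0.35, mt-Co1 and mt-Co3 turned to 0.054 and 0.018, and 11 of the 13 fell. Fewer mitochondria and less RNA per mitochondrion cannot be told apart in bulk samples, nor can fewer cells of a type and less RNA per cell.

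In DMSO, the level per kb of transcript spanned from 3.56 CPM per kb for Mrpl1 to 64.3 for Mrps21, with a median of 18.0. The large subunit (median 19.5) and the small subunit (median 15.0) covered the same range. The 3 highest were Mrps21, Mrpl20 (64.2) and Mrpl52 (57.5) and the 3 lowest were Mrpl1, Mrps35 (3.61) and Mrpl47 (3.79), all as levels per kb. The length used was that of the longest coding transcript, up to 7300 bases for Mrpl17, so that a gene with an unused long 3′ end has its level understated. Mrpl47 and Mrpl1, with the largest falls, were thus among the 3 lowest per kb. Across the 78 genes, the log2 fold change had a Pearson correlation of 0.17 with transcript GC content, -0.085 with log2 length and 0.27 with log2 mean CPM, given as a description of genes that share libraries.

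The spread between replicates was also measured. The median relative SD of a mitoribosomal gene was 4.28% within DMSO and 8.63% within BW723C86, beside 4.49% and 6.63% for tested genes in the same CPM range. BW723C86 replicate 2 was the lowest of its group for 50 of 78 genes (64.1%), beside 38.1% of all tested genes, and the lowest of all 6 libraries for 32. Its median deviation from the group mean was -0.089 on the log2 scale, and across the 78 genes this deviation had a correlation of -0.39 with GC content. For counts divided by 4, the mean chi-square of a mitoribosomal gene against replicates 1 and 3 was 4.53 and 3.48, whereas all other pairs within a group gave 1.06 to 1.36. The library stood apart over all genes compared too, at 10.2 and 6.93 on this measure, beside 2.65 to 3.01 for the other pairs. The part of this library in the counts above was not tested beyond leaving it out.

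**Figure D5:**
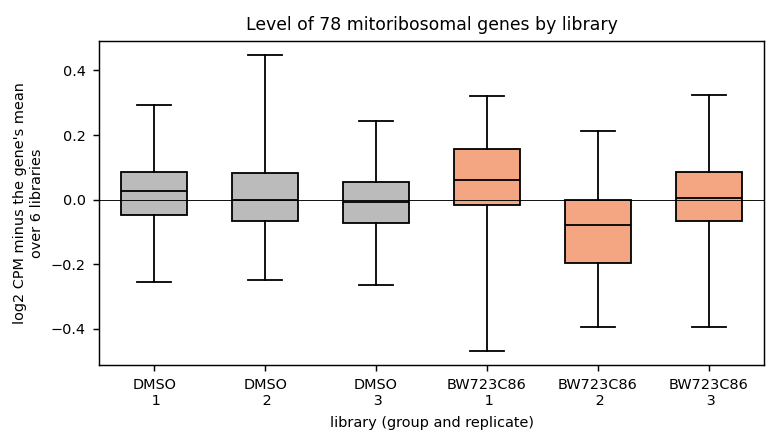
Log2 CPM of each of the 78 genes minus its mean over the 6 libraries, by library (box, quartiles with median; whiskers, lowest and highest gene). BW723C86 replicate 2 has a median of -0.078 and BW723C86 replicate 1 one of 0.062, whereas the DMSO libraries lie from -0.007 to 0.027.

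Many of these genes start next to a gene on the opposite strand. A divergent or overlapping start within 1000 bases was annotated for 33 of 78 (42.3%), beside 16.5% of 12600 tested protein-coding genes. Of the 31 partners that were tested, 13 passed (41.9%), about the share of all tested genes (42.0%). Member and partner both passed in 4 pairs. Mrpl50 and Zfp189, a zinc finger gene, fell together (-0.26 and -0.54), whereas Mrpl14 and Tmem63b (-0.25 and 0.51), Mrpl47 and Ndufb5 (-0.64 and 0.18) and Mrpl48 and Rab6a (0.42 and -0.3) went opposite ways. In these last 3 pairs the genes share exon bases. Mrps11 and Mrpl46 encode one protein of each subunit and face each other, their promoter windows sharing 141 bases, and neither passed (-0.082 and 0.045). Mrps12 starts opposite Sars2, the mitochondrial seryl-tRNA synthetase, and neither passed (-0.12 and 0.02). In all, 20 of the genes share exons with a gene at over 0.1 times their own CPM, among them 6 that passed (Mrpl47, Mrpl48, Mrpl14, Mrpl13, Mrpl27 and Mrps7).

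The factors that build and serve the mitochondrial ribosome were taken as companion genes. Of 70 such genes, 8 rose and 6 fell, beside the 42.0% of all tested genes. The 5 mitoribosomal proteins with other names (Dap3, Ptcd3, Aurkaip1, Chchd1, Gadd45gip1) did not pass (0 of 5; 1 rose and 2 fell without BW723C86 replicate 2). Among 26 assembly factors, 2 rose and 4 fell. The falls numbered 1 without BW723C86 replicate 3 or DMSO replicate 3, 2 without DMSO replicate 2 and 7 with library totals alone, and 1 rose without BW723C86 replicate 1 or 3 or DMSO replicate 1. Mettl17, needed for small subunit assembly, rose by 0.76 (SE 0.084, adjusted p = 9.7e-06), from 14.1 ± 0.47 to 23.9 ± 2.34 CPM (SD, n = 3), and the GTPase gene Gtpbp10 fell from 8.58 ± 0.895 to 5.8 ± 0.8 CPM (-0.57, adjusted p = 0.0039). Both passed with each library left out. Among 17 translation factors, 2 rose and none fell (1 rose without BW723C86 replicate 2 or 3 or DMSO replicate 2 or 3), with Metap1d, a methionine aminopeptidase, at 0.79 (SE 0.13, adjusted p = 0.00028). Among 22 genes of mitochondrial tRNA charging, 4 rose and 2 fell, a balance that did not hold. With a library left out 1 or 2 rose and 1 to 4 fell (2 and 4 without BW723C86 replicate 3), with GC and length trends removed 1 rose and 4 fell, and with library totals alone 1 rose and 6 fell. Without single libraries the 70 genes gave 5 higher and 4 lower (BW723C86 replicate 1), 7 and 10 (BW723C86 replicate 2), 4 and 5 (BW723C86 replicate 3), 5 and 4 (DMSO replicate 1), 5 and 3 (DMSO replicate 2) and 4 and 2 (DMSO replicate 3), and with library totals alone 4 and 16.

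Genes that replicate, transcribe and process mitochondrial DNA gave 1 higher and 4 lower of 23 (2 and 6 without BW723C86 replicate 2, 1 and 8 with library totals alone). Twnk, the replicative helicase, rose by 0.38 (adjusted p = 0.0031), and Trmt10c (-0.46), Polg (-0.32) and Tfam (-0.29), a subunit of mitochondrial RNase P, the DNA polymerase and the packaging factor of mitochondrial DNA, fell (adjusted p of 0.0023, 0.00063 and 0.0075). Twnk (18.6 CPM over all samples) shares 507 exon bases on the opposite strand with Mrpl43 (46.5 CPM), so reads of these bases may not be told apart. Of 9 tested regulators of mitochondrial biogenesis, 5 fell and 1 rose (66.7%, beside 42.0% of all tested genes). The falls numbered 3 without BW723C86 replicate 3 or DMSO replicate 3, and 2 rose with any 1 BW723C86 replicate or DMSO replicate 2 left out. Without BW723C86 replicate 1 or 3 or DMSO replicate 2, 10 genes were tested, as Ppargc1a then passed the filter. Ppargc1a had 0.0 CPM in DMSO and a mean of 0.171 CPM with BW723C86. Those that fell included Gabpa (47.1 ± 2.68 to 36.0 ± 1.62 CPM; -0.39, SE 0.062, adjusted p = 0.00023) and Gabpb1 (-0.35, adjusted p = 0.0022), which form the ETS factor GABP, and Yy1 (-0.25, adjusted p = 0.0011). Nrf1 and Sp1 were each at -0.23. Nrf1 was lost without BW723C86 replicate 3 or DMSO replicate 2 or 3 (adjusted p of 0.087 to 0.13), and Sp1 without BW723C86 replicate 3 or DMSO replicate 3 (0.052 and 0.051). The coactivator gene Ppargc1b rose by 0.95 (SE 0.16, adjusted p = 0.00031), from 3.13 ± 0.374 to 6.05 ± 0.835 CPM.

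Genes listed as markers of other cells moved between the groups. Of all tested genes, 21.3% rose and 20.7% fell. The macrophage genes Csf1r, Cd68 and Lyz2 were abundant in both groups (738 and 1060, 744 and 838, 32900 and 29400 CPM in DMSO and BW723C86). Of 12 macrophage markers, 7 rose and 4 fell. Among the 4 that fell, Itgam went from 2090 to 976 CPM (log2 fold change -1.1) and Adgre1 from 689 to 390 CPM (-0.82). Among the 7 that rose, C1qa, C1qb and C1qc had the largest log2 fold changes (1.57, 1.67 and 1.41). All 10 tested neutrophil markers fell (summed range 2650 to 2730 CPM in DMSO and 715 to 821 CPM with BW723C86), as did all 8 monocyte markers (6020 to 6100 and 1480 to 1610 CPM) and all 6 tested lymphocyte and mast cell markers (58.9 to 63.0 and 12.8 to 15.2 CPM). Of 9 tested dendritic cell markers, 7 rose (3910 to 3960 and 15100 to 17300 CPM). Few genes made most of these sums. In DMSO, Mmp8 made 2420 of a mean 2700 CPM for neutrophil markers and Cpa3 51.6 of 60.5 CPM for lymphocyte and mast cell markers. Chil3 and Fn1, at 3200 and 2170 CPM, led the 6050 CPM of monocyte markers, and Cd74, at 2470 CPM, the 3940 CPM of dendritic cell markers. Camp, Retnlg and Mpo, the neutrophil markers not tested, had 0.173, 0.078 and 0.0534 CPM. Whether the sums reflect cell content was not tested. Of 9 neuronal markers in the table, 3 were tested and 2 of these rose. Uchl1 stood at 7.35 to 7.78 CPM in DMSO and 10.8 to 14.2 CPM with BW723C86, and Nes at 0.0 to 0.0514 and 0.25 to 0.507 CPM, whereas Map2, Nefl and Dcx had no count in any library. The part of these marker changes in the 16 mitoribosomal changes was not tested.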

How the data were processed

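The deposited table holds the authors' estimated count of each gene in each library, in whole numbers, made with fastp, HISAT2, StringTie and edgeR per the submitters' processing notes, which name GRCm39 and GRCh38 and give no versions or order. Low values pile up at multiples of 4, so counts divided by 4 were tried. Per the labels' protocols, the RNA was poly(A)-selected and the libraries strand-marked and paired-end. Symbols, transcript length and GC content came from GENCODE M21 (27005 of 28822 identifiers matched), and no coordinates of that annotation are given. Tests were edgeR 4.0.16 (R 4.3.3) with TMM scaling, its filter on expression by group and a robust quasi-likelihood fit of all 6 samples, two-sided, adjusted over 15567 genes, after a check on simulated data. For sums, an exact permutation test over samples was used, two-sided. Intervals are 95% intervals of the fitted log2 fold change. Alternatives included other scalings and filters, DESeq2 1.42.0 and limma-voom (limma 3.58.1).

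The members and lists were chosen with earlier results of these data known. Named by rule were genes past the threshold without overlap (up to 8 each way), the 3 highest and lowest levels per kb, the genes of the functional groups, Mrps36 and up to 3 companion genes each way per list. Promoters other than those of Mrpl47 and Mrpl48, the overlapping neighbours, the named macrophage and neuronal markers, Nrf1 and Sp1 were named after their values were seen. A mitoribosomal gene had 423 to 5358 counts per library. If a fragment is worth 4 counts, DMSO replicates differed in these genes by little more than counting noise (mean chi-square 1.06 to 1.26). Samples of the same replicate number showed no shared deviation from their group means (correlations of deviations 0.031, -0.0247 and -0.00481). These values cannot settle whether the samples were paired by design.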

Additional observations from a re-analysis of the deposited data

How the results depend on the processing

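Mrpl47 and Mrpl48 passed in 19 of 19 alternatives, Mrpl1, Mrpl23, Mrpl27, Mrpl35 and Mrps23 in 18 (lost against a fold change of 1.2) and Mrps7 in 5. No mitoribosomal gene that passed changed sign. With library totals alone, 3 mitoribosomal genes rose and 19 fell, 4 companion genes rose and 16 fell, the median was -0.094 (all genes -0.069) and the summed difference -114 CPM. A filter of 5 CPM gave 11 higher, as did counts divided by 4. Against a fold change of 1.2, 1 rose and 1 fell (companions 2 and 1). With GC and length trends removed, companions gave 5 and 12 (with the replicate block 4 and 13), and mt-Co1 and mt-Co3 turned to 0.054 and 0.018 (with the block 0.053 and 0.017). The cause of these moves was not tested. Leaving out each library gave 3 to 11 higher and 5 to 14 lower (companions 4 to 7 and 2 to 10), a median of -0.057 to 0.017, a summed difference of -62.3 to 61.1 CPM and a share of -0.899 to -1.15 points. Samples of the same replicate number showed no shared deviation (see the correlations given with the methods). The replicate block gave 6 higher and 11 lower, 15 of the 17 being among the 16 that passed without it. The least counted mitoribosomal gene had 423 counts in a library.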

Other observations

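Of 81 genes for the cytosolic ribosome, which makes the nuclear-encoded proteins, 51 fell and 1 rose (64.2%, beside 42.0% of all tested genes). Over the 6 left-out libraries 45 to 58 fell, 5 rose and 56 fell without BW723C86 replicate 2, and 4 rose and 54 fell with GC and length trends removed. The genes had a median log2 fold change of -0.26, beside -0.019 for the 78 mitoribosomal genes. Many of these genes have near-identical copies, so their counts are less certain. Of 34 genes for the building of the cytosolic ribosome, 13 fell and 2 rose (44.1%; 10 to 15 fell and 1 to 3 rose over the left-out libraries, and 21 fell and 1 rose with library totals alone). Nop58, a core protein of small nucleolar particles, fell from 29.9 ± 1.0 to 17.6 ± 0.992 CPM (SD, n = 3; log2 fold change -0.77, SE 0.07, edgeR adjusted p = 1.7e-06). The pseudouridine synthase gene Dkc1 (-0.76) and the nucleolar chaperone gene Npm1 (-0.75, from 300.0 ± 8.97 to 178 ± 10.7 CPM) fell alike. All 3 passed with each library left out.

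Genes of mitochondrial protein import, the route by which mitoribosomal proteins reach the matrix, gave 6 higher and 5 lower of 28 (39.3%, close to the 42.0% of all tested genes). With library totals alone 2 were higher and 9 lower. The higher count fell to 2 without BW723C86 replicate 3 or DMSO replicate 1, to 4 without DMSO replicate 2 and to 3 without DMSO replicate 3. Timm23, the channel of the inner membrane, rose from 45.4 ± 3.9 to 58.7 ± 5.64 CPM (log2 fold change 0.37, SE 0.078, edgeR adjusted p = 0.0019), and Pmpcb, a subunit of the peptidase that removes targeting sequences, rose by 0.33 (edgeR adjusted p = 0.00048). Tomm7, a small subunit of the outer membrane channel, fell by 0.44 on the log2 scale (edgeR adjusted p = 0.002).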
